A study of Homo sapiens with 2 samples.

Results

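The solute carriers (SLC) are the largest group of membrane transport proteins in human cells, and the RNAs of these genes that were crosslinked to RBM47 are described here. A gene was a member when its symbol in the deposited cluster table began with SLC, a family number, letters and a member number. SLC7A11 and SLC3A2 were left out by the rule. The rule used symbols and no measured value, but it was set with earlier results of these data known. The rule found 2695 clusters in 134 genes, of 170251 clusters in 7712 genes that carried a gene ID and of 233546 clusters in all. It also took in 4 symbols that do not name a carrier. These were SLC7A11-AS1, an antisense RNA, SLC7A6OS, a gene on the strand opposite SLC7A6, and SLC9A3R1 and SLC9A3R2, which code for scaffold proteins.

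MDA231-BrM2a cells form brain metastases and descend from MDA-MB-231, a human breast cancer line. Non-clonal cells expressed Flag-tagged wild-type RBM47 from a promoter switched on by doxycycline, and were given 1 ng/ml for 3 days before ultraviolet irradiation. In HITS-CLIP, the light links a protein to the RNA it touches, and the RNA pulled down with the tagged protein is sequenced. There were 2 replicates of 1 group, which share the cell line, the transgene and the treatment, and no sequenced control library was analysed here to set beside the tags. The labels do not say that the replicates came from separate cultures, and the spread between them may be technical. RBM47 itself had 395 tags in replicate 1 and 1554 in replicate 2, and the introduced and endogenous transcripts are not told apart.

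A tag is a unique read, and a cluster is a stretch of overlapping tags. The listed clusters summed to 999047 tags in replicate 1 and 3489697 in replicate 2, a ratio of 3.49. Raw tags are therefore higher in replicate 2 throughout, and the fewer tags of replicate 1 give it the larger counting error. The table starts at 5 tags per cluster, with 1 or more from each replicate. As a check of the cell line, VIM, CD44, AXL and CAV1, which mesenchymal-like breast cancer cells express, had 2335 to 8404 tags. Of the luminal and epithelial genes ESR1, PGR, GATA3, CDH1 and EPCAM, only EPCAM was listed, with 11 tags.

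Solute carriers move amino acids, sugars, ions, metals, nucleotides and vitamins across the plasma membrane and the membranes of organelles. Families are numbered by sequence and function, and the family number often tells the cargo. RBM47 is a protein with RNA recognition motifs. Proteins of this kind can act on messages in the nucleus, mostly through introns, and on mature messages, often through the 3'UTR. The amount of tag on a gene also rises with the amount of its RNA, which was not measured here, so tag numbers are binding totals and not affinities.

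RBM47 tags were found on a wide range of SLC messages and were most numerous on SLC38A1 and SLC38A2, of the amino acid carriers, and on the zinc transporters. Clusters of at least 10 tags, the study's filter, were present in 94 of the 134 genes. This share was slightly below the background of 72.6% of all genes with any cluster. More than 100 tags in such clusters were present in 63 genes, or 47.0%, where the background was 39.9%. More than 1000 tags were present in 18, or 13.4%, with a background of 8.4%. With all deposited clusters summed, the median was 120.5 tags per SLC gene with quartiles of 16 and 529, beside 96 tags with quartiles of 21 and 380 over all genes. Of the SLC clusters, 1243 of 2695 reached 10 tags (46.1%, background 41.6%). Of those, 128 reached 100 tags, or 10.3%, beside a background of 5.3%. These shares stand side by side without a test, because genes and clusters are not replicates.

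Together the SLC genes, 134 of the 7712 listed, held 2.52% of the tags in gene clusters in replicate 1 and 2.55% in replicate 2 (2.53% ± 0.0210, SD, n = 2). A pair of genes made up much of this. SLC38A1 and SLC38A2 held 29.5% of the SLC tags in replicate 1 and 28.8% in replicate 2, and without them the SLC share of tags in genes was 1.81%. The first 10 genes held 59.3% of the SLC tags and the first 25 held 81.8%.

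**Figure D1:**
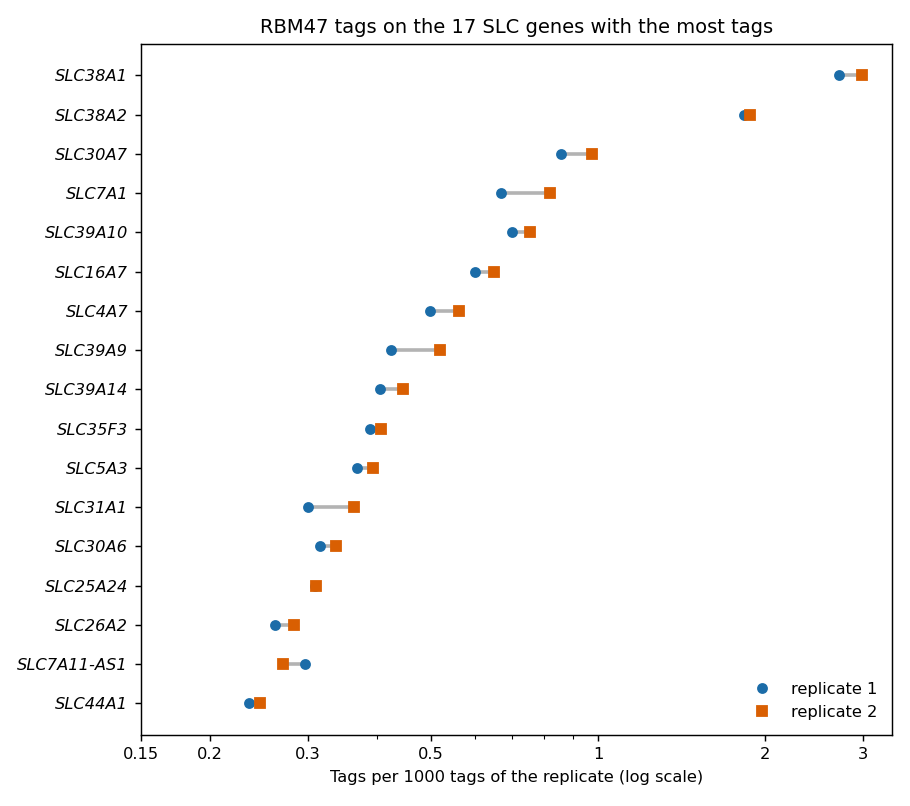
Tags per 1000 tags of the replicate (log axis) for the 17 SLC genes with the most tags in clusters of at least 10 tags, with replicate 1 as circles and replicate 2 as squares. SLC38A1 and SLC38A2 stand above the others in both replicates, and many neighbours further down overlap.

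The genes kept much the same order in both libraries. Among the 24 neighbouring pairs of the first 25 genes, 17 had the same order in both replicates, and the values of 11 pairs did not overlap. SLC38A1, SLC38A2, SLC30A7 and SLC7A1 were each apart from the next lower neighbour, except that SLC7A1 overlapped SLC39A10. Further down, SLC4A7, SLC39A9, SLC39A14 and SLC35F3 each overlapped the next gene in that order.

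Amino acid transporters carried more SLC tags than any other role. The 16 genes of these families held 37.1% ± 0.302 (SD, n = 2) of the SLC tags. Of them 9 had more than 100 tags, beside a background of 39.9% of all listed genes. SLC38A1 and SLC38A2 alone held 29.1% ± 0.432 (SD, n = 2) of the SLC tags. The lead of this role over the zinc transporters, which held 21.6%, rested on these 2 genes. SLC38A1 (Entrez gene 81539) codes for SNAT1, a sodium-coupled carrier of glutamine and other small neutral amino acids. It had 2709 tags in replicate 1 and 10409 in replicate 2, in 45 clusters on the minus strand of chromosome 12. Scaled to the libraries this was 2.85 ± 0.192 per 1000 tags (SD, n = 2), and the gene ranked 14 among all genes. SLC38A2 (Entrez gene 54407) codes for the related SNAT2, whose level is known to rise when amino acids are scarce. It lies close by on the same chromosome and strand, and had 1826 and 6536 tags in the replicates, or 1.85 ± 0.0320 per 1000 (SD, n = 2). Its rank among all genes was 26. Per kb of cluster SLC38A2 was the denser of the pair, with 1807 tags against 1314 for SLC38A1.

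SLC7A1, which codes for the arginine and lysine carrier CAT1, was the next of this role. It had 668 tags in replicate 1 and 2860 in replicate 2, or 0.744 ± 0.107 per 1000 (SD, n = 2). SLC36A4 had 161 and 612 tags, and SLC7A2, another cationic amino acid carrier, had 114 and 344. SLC7A5, the large neutral amino acid carrier LAT1 that pairs with the protein of SLC3A2, had 61 and 227 tags. SLC38A9, a lysosomal arginine sensor of the mTORC1 pathway, had 71 and 198. The glutamine carrier SLC1A5 stayed below 100, with 18 tags in replicate 1 and 73 in replicate 2. The glutamate carrier SLC1A3 had no cluster of 10 tags. The SLC38 and SLC7 families were thus unevenly occupied, from SLC38A1 with 13079 tags to SLC38A4 with no cluster of 10 tags.

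The clusters on SLC38A1 and SLC38A2 ran along nearly the whole of the 3'UTR-labelled stretch. On SLC38A1, 11 clusters labelled 3'UTR alone or with CDS covered 5931 nt of a 6013 nt span. The widest gap was 26 nt. For comparison, the 3'UTR of the canonical GENCODE transcript is 5907 nt long. On SLC38A2, 3 clusters covered 3011 nt of 3030 nt, beside an annotated 3'UTR of 2923 nt. Tag density differed modestly along these stretches. Within SLC38A1 the clusters labelled 3'UTR alone held 126 to 256 tags per 100 nt, and the cluster at the start of the stretch held 21.5. Within SLC38A2 the range was 216 to 268 tags per 100 nt.

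**Figure D2:**
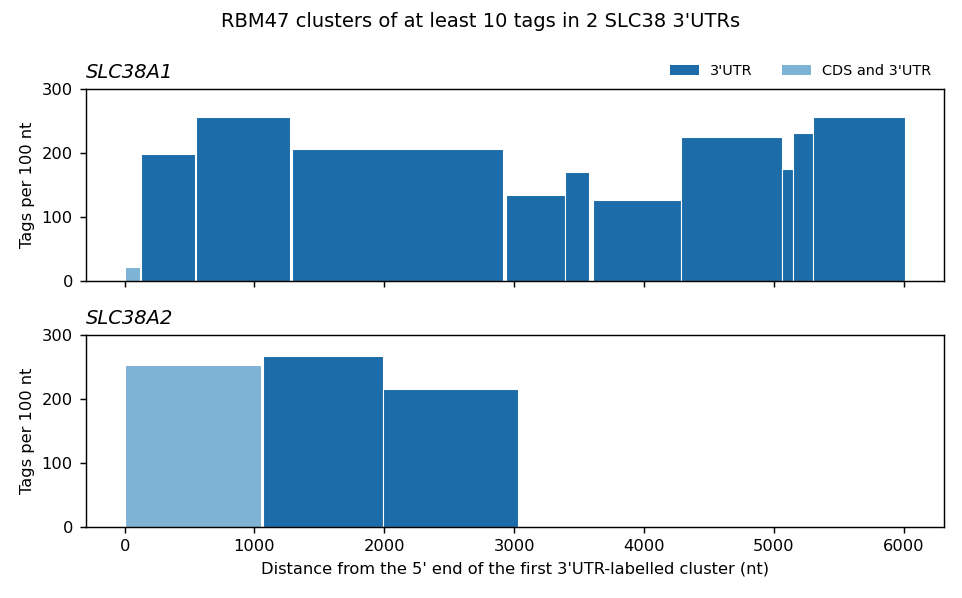
Clusters of at least 10 tags on the 3'UTR-labelled stretches of SLC38A1 and SLC38A2, drawn by distance in nt from the 5' end of the first such cluster, with bar height as tags per 100 nt of cluster from the authors' total. Clusters follow each other with gaps of at most 26 nt, and all but the first SLC38A1 cluster hold over 100 tags per 100 nt.

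The largest SLC cluster was in the SLC38A1 3'UTR, at 44866211 to 44867834 of chromosome 12 (hg18, minus strand). It held 714 tags in replicate 1 and 2636 in replicate 2. The next was the SLC38A2 cluster at 45040217 to 45041265, labelled CDS and 3'UTR, with 592 and 2056 tags. SLC38A2 also gave the pair that followed, with 548 and 1920 tags at 45039276 to 45040197 and 467 and 1780 tags at 45038235 to 45039277. The clusters ranked 5 to 7 were all in SLC38A1. SLC7A1 followed with 281 and 1156 tags in its 3'UTR, at 28982959 to 28984616 of chromosome 13 (hg18, minus strand). The ninth, in SLC30A7, had 180 and 709 tags at 101218301 to 101219833 of chromosome 1 (hg18, plus strand), and the tenth was again in SLC38A1, with 163 and 693.

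Zinc transporters were the second role by tags. The SLC30 proteins move zinc out of the cytosol and the SLC39 proteins move it in. Of 15 listed genes, 11 had more than 100 tags, beside a background of 39.9%. The role held 21.6% ± 0.442 (SD, n = 2) of the SLC tags. The median of 569 tags per gene, all clusters summed, was higher than that of any other role. SLC30A7, whose product ZnT7 loads zinc into the Golgi, had 856 tags in replicate 1 and 3398 in replicate 2. SLC39A10, a zinc importer, had 700 and 2628 tags in 84 clusters. SLC39A9 had 423 and 1812, SLC39A14, a carrier of zinc and iron, had 404 and 1551, and SLC30A6 had 315 and 1178. The SLC39A6 tags were 195 and 735, with 40.6% in CDS clusters, the second highest CDS share among the 63 genes over 100 tags. SLC30A1, the zinc exporter of the plasma membrane, had 120 and 421 tags in 2 kinds of cluster, CDS and those that span CDS and 3'UTR. Only SLC39A11 and SLC39A13 of the 15 had no cluster of 10 tags.

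**Figure D3:**
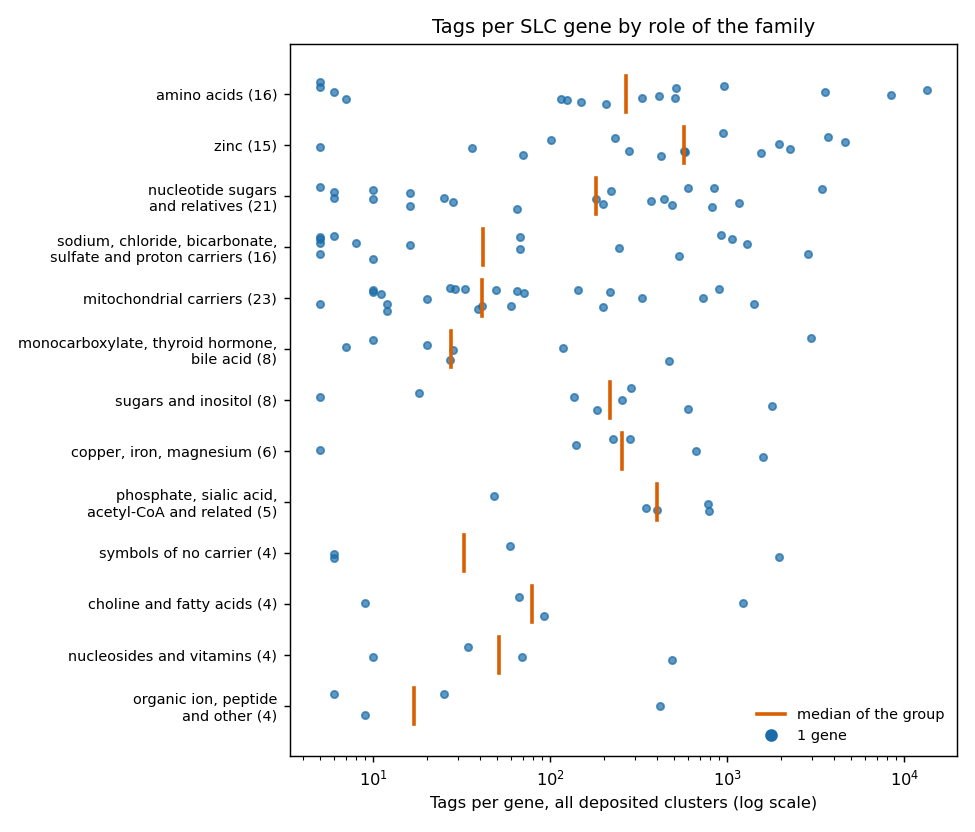
Tags per SLC gene over all deposited clusters (log axis), grouped by the role of the family, with the number of listed genes in brackets. Each point is 1 gene and each bar the median, which was 569 for zinc and 267 for amino acids but 41 for mitochondrial carriers.

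Among the 16 listed carriers of sodium, chloride, bicarbonate, sulfate and protons, 6 had more than 100 tags, where the background was 39.9%. SLC4A7, a sodium bicarbonate cotransporter, led with 498 and 1957 tags in the replicates. The sulfate carrier SLC26A2 had 262 and 989 tags, and the sodium potassium chloride cotransporter SLC12A2 had 150 and 695. The 8 genes with no cluster of 10 tags included the bicarbonate carriers SLC4A2, SLC4A4 and SLC4A8.

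The family 35 genes mostly code for transporters of nucleotide sugars into the endoplasmic reticulum and Golgi. Of 21 listed genes 11 had more than 100 tags, where the share was 47.0% of SLC genes and 39.9% of all listed genes. SLC35F3, a member linked to thiamine transport, was highest with 388 and 1420 tags. SLC35A3, which carries UDP-N-acetylglucosamine, had 190 and 817, and SLC35F2 had 180 and 650. SLC35E2 and SLC35E2B, which are near-identical copies and may share reads, had no cluster of 10 tags.

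Mitochondrial carriers of family 25 had the most listed genes, 23, and 6 of them had more than 100 tags, with a background of 39.9%. SLC25A24, a carrier of ATP-magnesium and phosphate, had 309 and 1085 tags. SLC25A36, a carrier of pyrimidine nucleotides, had 179 and 642. The phosphate carrier SLC25A3 had 26 and 131, and the ADP/ATP carriers SLC25A5 and SLC25A4 had 11 and 46 and 7 and 32 tags. SLC25A5 has processed copies elsewhere in the genome, so its count is uncertain.

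Among monocarboxylate and bile acid carriers, SLC16A7, which codes for the pyruvate and lactate carrier MCT2, had 599 and 2265 tags. Its relative SLC16A1, which codes for MCT1, had 2 and 12. Of the sugar transporters, the inositol carrier SLC5A3 had 368 and 1370 tags. This gene overlaps MRPS6 on the same strand, so some of its tags may belong to that transcript. The glucose transporter genes SLC2A1 and SLC2A3 had 125 and 435 tags and 51 and 169 tags. Of the metal carriers outside zinc, the copper importer SLC31A1 had 300 and 1267 tags. Its relative SLC31A2 had 43 and 155, the magnesium carrier SLC41A2 had 131 and 441, and the iron carrier SLC11A2 had 29 and 81. In the remaining roles, the lysosomal sialic acid exporter SLC17A5 had 164 and 571 tags and the acetyl-CoA carrier SLC33A1 had 124 and 569. The choline carrier SLC44A1 had 235 and 860, the thiamine carrier SLC19A2 had 89 and 357, and SLC22A15, of the organic ion families, had 51 and 172.

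The study named some SLC genes in its lists of exons or messages that changed with RBM47. Of 12 such carrier genes, SLC30A6, SLC2A1, SLC35B3, SLC20A1, SLC10A7, SLC31A2 and SLC50A1 had more than 100 tags, from SLC50A1 with 25 and 105 to SLC30A6. These are 7 of 12, where the share of all listed genes was 39.9%. The 12 include SLC29A1, which had no cluster, while the 39.9% is over genes with a cluster. SLC30A6 and SLC10A7 come from a list of exons that the study had already chosen for RBM47 tags nearby, so their tags are no independent evidence. The scaffold gene SLC9A3R1, also in these lists, had 13 and 39 tags. SLC10A7 had 52 and 233 tags, and 3'UTR clusters held 87.9% of them. With all its deposited clusters, 3'UTRs held 52.8% of 470 tags and introns 40.4%. Of its 30 intron clusters, 2 reached 10 tags. SLC16A6, SLC35D2, SLC35E2 and SLC43A3 had 5 to 28 tags over all deposited clusters and none in clusters of 10, and SLC29A1 was listed in no cluster. Of 378 protein-coding genes with an SLC symbol in RefSeq (GRCh38.p14), 137 were listed by gene ID, or 36.2%, and of all 20056 protein-coding genes 36.2% were. This count includes genes renamed since the table was made.

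The SLC tags lay mainly in 3'UTRs. By tags in clusters of at least 10, 3'UTR clusters held 65.9% in replicate 1 and 66.9% in replicate 2 (66.4% ± 0.691, SD, n = 2). Over all genes the value was 47.1% ± 0.358 (SD, n = 2). Introns held 9.05% and 8.23% of the SLC tags (8.64% ± 0.581, SD, n = 2), and 18.9% ± 0.539 (SD, n = 2) over all genes. Coding sequence alone held 7.60% ± 0.0757 (SD, n = 2) of the SLC tags, and clusters that span CDS and 3'UTR held 9.15% ± 0.0556 (SD, n = 2).

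Counted as clusters, the regions were closer. Of 1243 SLC clusters of at least 10 tags, 37.6% (Wilson 95% interval 34.9 to 40.3) were labelled 3'UTR alone and 31.4% (28.9 to 34.0) intron alone. The intervals here cover counting error only. Over all genes the shares were 35.1% and 38.5%. The order turned with the minimum. In all deposited SLC clusters 51.4% were in introns and 25.3% in 3'UTRs. At 100 tags 94 of 128 clusters, or 73.4% (65.2 to 80.3), were in 3'UTRs and 0 in introns (Wilson 95% interval up to 2.91%). The largest SLC intron cluster had 99 tags. Over all genes, 304 of 3751 clusters of 100 tags were in introns, or 8.10%. A single gene, SLC35F3, gave 123 of the 390 intron clusters of at least 10 tags, and without it the intron share was 23.8%.

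**Figure D4:**
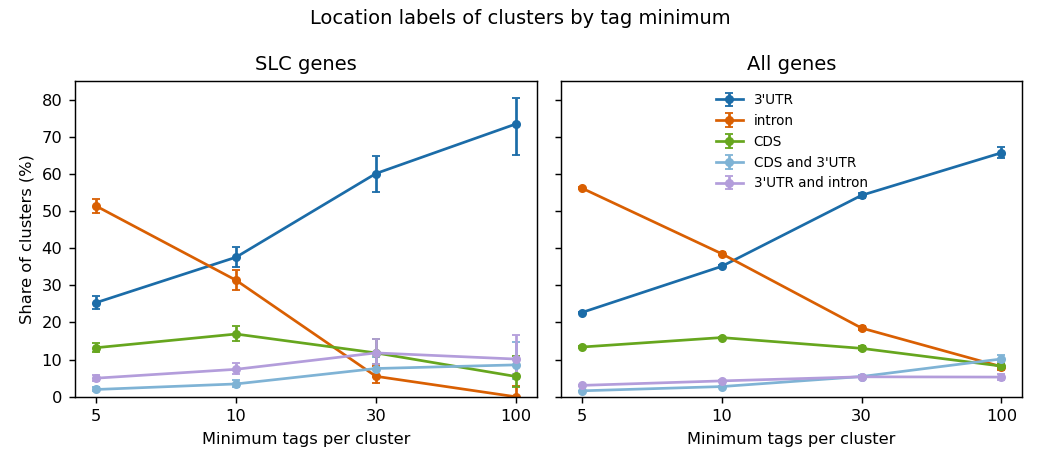
Share of clusters with each location label at minimums of 5, 10, 30 and 100 tags per cluster, for SLC genes and for all genes, with Wilson 95% intervals. The 3'UTR share rises and the intron share falls with the minimum in both, and no SLC intron cluster reaches 100 tags.

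The 3'UTR clusters of SLC genes were also the larger ones. The median was 29 tags in 3'UTR clusters and 13 in intron clusters, beside 22 and 14 over all genes. The mean of log2 tags in 3'UTR clusters exceeded that in intron clusters by 1.43 in replicate 1 and by 1.49 in replicate 2 (1.46 ± 0.04, SD, n = 2). Over all genes this difference was 0.80 ± 0.04 (SD, n = 2). The 3'UTR clusters were also longer, with a median of 141 nt against 108 nt in introns, and per nt of cluster the SLC difference by the authors' total was 0.95. Without SLC38A1 and SLC38A2, the difference in mean log2 tags, not scaled by length, was 1.32 by the authors' total, beside 1.46 with them. All of the 23 SLC genes with clusters of both kinds had a higher mean in the 3'UTR. This count was not made over all genes, so whether it is particular to SLC genes is not known.

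Single genes departed from this profile. Of the 63 SLC genes with more than 100 tags, 44 had over 50% of their tags in 3'UTR clusters alone, or 69.8%, beside a background of 63%. Counting clusters that pair the 3'UTR label with CDS or intron raised this to 59 genes, or 93.7%, beside a background of 76%. Introns held over 50% of the tags in 3 genes, SLC35F3, SLC7A11-AS1 and SLC38A6, or 4.76%, where the background was 12.8%. In 4 more genes, or 6.35% with a background of 4.03%, most tags were in clusters labelled both 3'UTR and intron, where the 2 cannot be separated. These were SLC16A7 with 76.7% of its tags, SLC30A6 with 61.8%, SLC35D1 with 97.1% and SLC9A7 with 100%. In SLC30A1 and SLC35G2 clusters that span CDS and 3'UTR held most tags, with 75.7% and 57.4%. These 2 genes were 3.17% of the 63, and the background was 2.54%. SLC20A1, a phosphate carrier, had no majority of any kind, with 45.1% in introns and 13.4% in 3'UTRs alone.

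**Figure D5:**
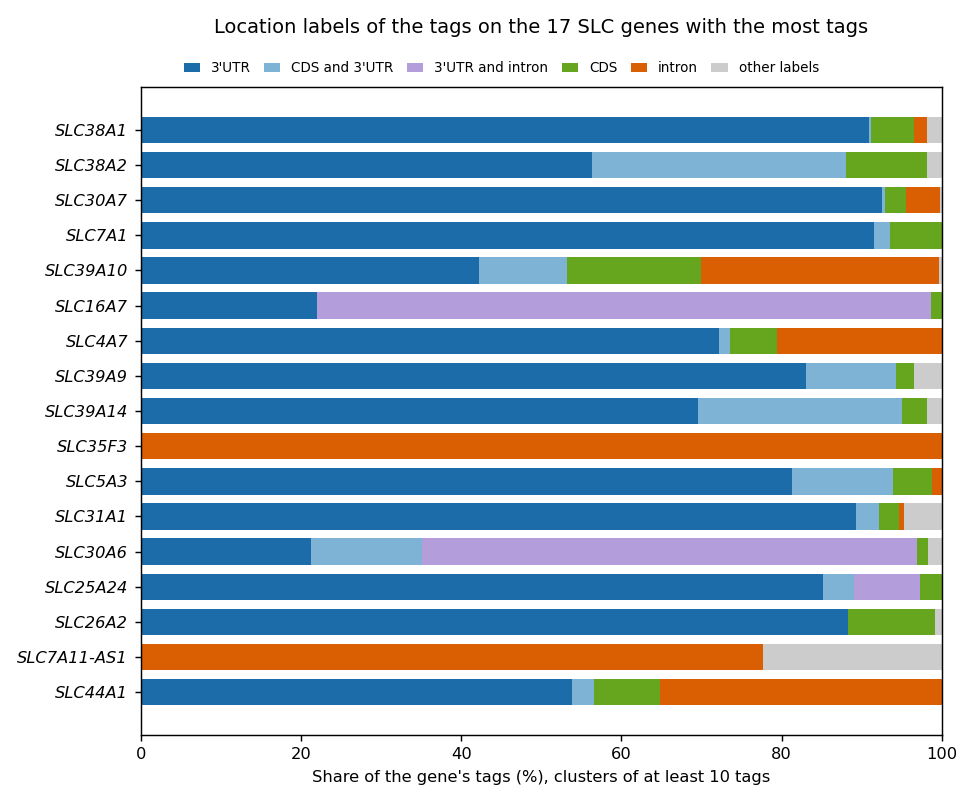
Share of each gene's tags by location label (%), for the 17 SLC genes with the most tags in clusters of at least 10 tags. SLC35F3 is labelled intron throughout and SLC7A11-AS1 is 77.7% intron, while SLC16A7 and SLC30A6 lie mostly under a joint 3'UTR and intron label.

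SLC35F3 had more intron tags and intron clusters than any other member. All of its 1787 tags in clusters of at least 10 were in introns. With all deposited clusters it had 373 intron clusters and 3420 intron tags, which ranked 30 and 40 among 7712 genes. The clusters were spread along 418 kb on the plus strand of chromosome 1, at 8.93 intron clusters per 10 kb. SLC7A11-AS1 and SLC39A10 were denser, with 18.0 and 14.9 per 10 kb, as were some members with fewer intron clusters, such as SLC25A32 with 12.8. The SLC35F3 intron clusters were small, with a median of 8 tags and a maximum of 56. Of the SLC35F3 intron tags, 52.3% were in clusters of at least 10. The replicates had 818 and 2662 of these intron tags. SLC38A6, a relative of SLC38A1, had 58 intron clusters along 94.1 kb, with a median of 7 tags and 128 and 370 tags in the replicates. Within family 38, introns thus held 1.59% of the SLC38A1 tags and 100% of the SLC38A6 tags in clusters of at least 10.

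SLC7A11-AS1, which is not a carrier, had 296 tags in replicate 1 and 943 in replicate 2, of which 77.7% were in introns and 22.3% in exons with no coding class. All of its clusters were on the plus strand of chromosome 4, the strand opposite SLC7A11. Lower intron shares were found in SLC39A10 with 29.7%, SLC44A1 with 35.2%, SLC35F5 with 32.2% and SLC20A1 with 45.1%.

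The long 3'UTR stretches were not particular to family 38. On SLC7A1, 11 clusters with a 3'UTR label covered 5095 nt of 5168 nt, and on SLC30A7 19 clusters covered 6347 nt of 6966 nt. On SLC16A7, 38 clusters covered 8563 nt of 10042 nt, beside an annotated 3'UTR of 10162 nt. SLC5A3 differed, with 12 clusters that covered 3708 nt of 8918 nt and a median gap of 294 nt.

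The annotated 3'UTRs were then compared, since RNA-binding proteins often favour uridine-rich sequence. For RBM47 itself, the study's motif search found no enriched sequence at the top peaks. It found runs of U enriched only at binding sites that held mutations caused by the crosslink. A 3'UTR was found in GENCODE for 132 of the 134 members. Its median length was 2946.5 nt in the 62 matched SLC genes over 100 tags and 2065 nt in the 39 without a cluster of 10 tags. Over all genes these medians were 2469 nt and 1358.5 nt. Adenine and thymine made up 62.8% of the 3'UTR (median) in SLC genes over 100 tags and 55.2% in those without a cluster of 10. Over all genes the medians were 64.3% and 58.5%. A run of at least 8 T was present in 74.2% and 48.7% of these SLC 3'UTRs, beside 64.0% and 38.6% of those of all genes in the same tag classes and 51.1% of those of all genes with a cluster. Across the 93 matched SLC genes with a cluster of 10 tags, Spearman's rho of 3'UTR length with tags in 3'UTR-labelled clusters was 0.443, and with tags per kb of annotated 3'UTR it was 0.0295. Across the 5316 matched genes of the whole table these were 0.360 and -0.0761. The share of T correlated with tags per kb at 0.250 across the SLC genes and at 0.303 across all genes. Longer 3'UTRs have more room for tags and for runs, so these values are descriptions.

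The longest T runs in the annotated 3'UTRs of the 6 SLC genes with the most tags are shown, 30 bases each, to display the kind of sequence counted. They are given 5′ to 3′ with T for U and the run in capitals. Whether tags lay on them was not tested, because the clusters are placed on another genome build.
SLC38A1, bases 5792 to 5821 of the 3'UTR: tagaactgggTTTTTTTTTTcagagtgtgg
SLC38A2, bases 1999 to 2028: tacagacTTTTTTTTTTTTTTTTgtatggg
SLC30A7, bases 971 to 1000: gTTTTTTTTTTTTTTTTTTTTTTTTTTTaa
SLC7A1, bases 1899 to 1928: atttgcttgaTTTTTTTTTccgttattttc
SLC39A10, bases 759 to 788: ttttgaTTTTTTTTTTTTTTTTTTggcggg
SLC16A7, bases 3968 to 3997: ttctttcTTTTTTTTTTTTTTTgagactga
The runs were 10, 16, 27, 9, 18 and 15 bases long in that order. The run lengths did not follow the order of tags, as SLC38A1 and SLC7A1 had the shortest.

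The agreement of the libraries was tested last. No SLC cluster was called different between the replicates in the two-sided exact binomial test with Benjamini-Hochberg adjustment over all 233546 clusters. Of all clusters 0.0111% were. The smallest clusters could not pass, as 5 tags split 4 to 1 toward replicate 1 gave an unadjusted p of 0.0101 in this exact binomial test. At an unadjusted p under 0.05 there were 84 of 2695, or 3.12%, with a background of 3.06% of all clusters with a gene ID, and the beta-binomial test also gave 0. Summed over genes, 3 of 134 passed, beside a background of 1.52% of 7712 genes. All were higher in replicate 2, where the background was 0.661%, and none in replicate 1, where it was 0.856%. SLC7A1 had 19.0% of its tags in replicate 1 (Wilson 95% interval 17.8 to 20.3), against 22.0% over all gene clusters (exact binomial test, adjusted p = 0.00287). In the same exact test SLC39A9 had 18.9% (17.3 to 20.6, adjusted p = 0.0229) and SLC38A1 20.8% (20.1 to 21.5, adjusted p = 0.0437). None of the 3 passed with clusters of at least 10 tags alone or in the beta-binomial test. Spearman's rho between the replicates was 0.985 across the 134 genes, 0.561 across all SLC clusters and 0.871 across those of at least 30 tags, as descriptions. In 391 of the 2695 SLC clusters, or 14.5%, the 2 replicate columns together exceeded the total given by the authors, beside 13.2% of all clusters with a gene ID. The excess came to 665 tags, at most 31 in a cluster.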

How the data were processed

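HITS-CLIP was carried out on 2 replicates of doxycycline-treated MDA231-BrM2a cells with Flag-RBM47. The authors tailed the bound fragments, made cDNA from a primer holding a degenerate barcode, collapsed mapped reads to unique tags and grouped these into clusters on Galaxy. The submitters' processing notes name Novoalign and hg18, with no version. Deposited values are tag counts for each cluster, by replicate and in total, and coordinates are as deposited.

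Genes were summed over clusters of at least 10 tags by the authors' total, or over all deposited clusters where stated. Values per replicate are per 1000 tags of its column, as mean ± SD. Splits between replicates were tested with a two-sided exact binomial test per cluster and per gene, against the replicate 1 share, with Benjamini-Hochberg adjustment over the whole table and a threshold of 0.05. On simulated data with 4-fold odds changes in 200 features of at least 100 tags, 91.5% were recovered with 3 false calls among 233546 clusters, and 99.5% with 5 among 7712 genes. Unchanged features varied there by counting error alone, as the exact binomial test assumes, so few false calls were built in. False calls under a wider spread between replicates, and recovery of odds changes under 4-fold, were not simulated. Recovery below 100 tags was not simulated. The SLC clusters had a median of 9 tags, and 128 of 2695 reached 100. Python 3.11.15, numpy 2.4.6, pandas 2.3.3 and scipy 1.17.1 were used.

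All 134 gene IDs matched RefSeq (GRCh38.p14), with a changed symbol in 5. The reference genome at hand was GRCh37, so no sequence was read by coordinates. 3'UTRs are the ends of GENCODE v44 canonical transcripts, used for length and composition. The members, the roles by family number and the tests were chosen with earlier results of these data known. The genes named were the 25 with the most tags, of which 1 is not reported here, the first of each role, intron-bound genes, the 10 largest clusters, genes past the split test and those in the study's lists. Others, such as carriers near them in family or role, were chosen after their values were seen. Alternatives varied the minimum, the labels counted, the reference share, the replicates used and clusters with excess tags.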

Additional observations from a re-analysis of the deposited data

How the results depend on the processing

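Among 50 alternatives, 18 stayed within the limits set for a value, 32 did not, and 0 changed the sign of a difference. The order of the 3'UTR and intron shares, however, turned when all deposited clusters were counted. The limits were the SD between replicates, a Wilson interval, or 1.5 times for a count. With every deposited cluster counted, 25.3% were in 3'UTRs and 51.4% in introns, with the SLC share of tags in genes at 2.32%. At 30 tags these were 60.1%, 5.51% and 2.90%, and the 3'UTR difference in mean log2 tags was 1.22. Without clusters whose replicate tags exceed the total, the 3'UTR share was 34.7%, the SLC share 2.21% and the difference 1.25. Counting every label gave 48.5% for 3'UTRs, 38.9% for introns and 8 intron-bound genes. Weighted by tags, the shares were 66.7% and 8.36%. The difference was 0.95 per nt of cluster and 2.09 within genes. Over all clusters the SLC share was 2.06%.

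With each replicate left out, the minimum of 10 tags per cluster and the limit of 100 per gene applied to raw tags of the replicate kept. Replicate 1 has fewer tags, so depth and replicate are not told apart in these values. SLC genes over 100 tags ranged from 27 without replicate 2 to 57 without replicate 1. Between 42.4% and 64.9% of clusters were then in 3'UTRs, and between 6.09% and 24.0% in introns. The difference ranged from 1.13 to 1.42, the SLC share from 2.61% to 3.03%, and intron-bound genes from 1 without replicate 2 to 3. The 3 genes with an uneven split became 0 under the beta-binomial test and 0 in clusters of at least 10 tags. These changes were chosen after seeing the data: without SLC35F3 the intron share was 23.8%, and without SLC38A1 and SLC38A2 the difference was 1.32 and the SLC share 1.81%. No paired analysis was possible because all samples belong to 1 group. The depth of replicate 1, with a median of 2 tags per cluster, limits statements on single clusters.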

Other observations

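Transporters outside the SLC symbols also had tags. Of 41 solute carriers that go under other symbols, 21 were listed, or 51.2%, beside 36.2% of all protein-coding genes. Of the 21, 15 had more than 100 tags, or 71.4%, beside 39.9% of all listed genes, with a median of 292 tags per listed gene over all clusters. MAGT1, which takes part in magnesium transport and protein glycosylation, had 450 tags in replicate 1 and 1798 in replicate 2, with 90.7% in 3'UTR clusters. The phosphate exporter XPR1 had 108 and 493, with 90.1% in 3'UTR clusters. TMEM165, a Golgi protein, had 131 and 550, with 47.6% in 3'UTR clusters. NIPA2, a magnesium carrier, had 187 and 652 with 19.4%, and over the whole list the 3'UTR share of tags was 66.6%.

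Of the 14 listed ABC transporters, which use ATP to move their cargo, 3 had more than 100 tags, or 21.4%, beside the same 39.9%, and the median was 54.5 tags. ABCE1, a ribosome recycling factor and not a carrier, had 120 and 418 tags, ABCD3 of the peroxisome had 80 and 254, and the cholesterol exporter ABCA1 had 83 and 250. Introns held 3.39% of the ABC tags. The organic anion transporter genes SLCO1B3 and SLCO1B7 had 392 and 1444 tags and 334 and 1280 tags, and introns held 88.1% of them. They are neighbouring related genes, so reads may be shared between them. BSG, which escorts monocarboxylate carriers to the membrane, had 27 and 78 tags, and EMB had 12 and 56.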
